A study of Homo sapiens with 8 samples.

Results

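CTCF occupancy was examined around 9 genes of the p53 pathway, CDKN1A, GADD45A, BTG2, SESN1, BBC3, BAX, FAS, TP53I3 and MDM2, in HT1080 cells. HT1080 is a human fibrosarcoma line, given as ras + in its labels. Cells were left without drug (control) or were exposed to 3 µM CBL0137 for 6 h, and chromatin bound by CTCF was precipitated with a polyclonal antibody and sequenced. Each condition had 2 biological replicates of ChIP and 2 of input, which makes 8 libraries in all. Replicates were pooled into a single peak list per condition, so that no value below has a replicate error, and the lists give no read counts, so that the depth behind a peak is unknown here. The members are the CTCF peaks that touch the body of one of the 9 genes or the 100 kb on either side of it. By this rule, 63 of 47470 control peaks and 56 of 29558 peaks of CBL0137-treated cells belonged to the loci, whose windows add up to 2.02 Mb. The lists hold CTCF positions alone, so that the identity of the cells and the expression of the genes were not examined.

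As background, p53 is a transcription factor that is held at a low level by MDM2, a ubiquitin ligase that is itself a p53 target. When p53 accumulates, it activates genes that halt the cell cycle, limit growth under stress or start apoptosis. CTCF is a zinc finger protein that binds a long GC-rich motif and, together with cohesin, sets the ends of chromatin loops and of topologically associating domains. CBL0137 belongs to the curaxins, small molecules that intercalate into DNA without breaking it, loosen nucleosomes and are known to activate p53.

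The peaks next to the transcription start sites show what CTCF occupancy looked like at the genes themselves. For 6 of the 9 genes a control peak was centred within 5 kb of the start, and 200 bases around the centre of each of these peaks are given here from GRCh37 (hg19), plus strand, 5′ to 3′. The capitals mark the best match to the CTCF core consensus in the peak, on either strand, which had 1 mismatch at BBC3, FAS and TP53I3 and 2 mismatches at CDKN1A, BTG2 and MDM2.
CDKN1A, chr6:36648326-36648525: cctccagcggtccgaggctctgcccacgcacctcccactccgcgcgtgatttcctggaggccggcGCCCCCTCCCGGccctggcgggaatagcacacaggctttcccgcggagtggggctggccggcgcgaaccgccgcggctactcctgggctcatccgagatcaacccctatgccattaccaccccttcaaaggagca
BBC3, chr19:47733876-47734075: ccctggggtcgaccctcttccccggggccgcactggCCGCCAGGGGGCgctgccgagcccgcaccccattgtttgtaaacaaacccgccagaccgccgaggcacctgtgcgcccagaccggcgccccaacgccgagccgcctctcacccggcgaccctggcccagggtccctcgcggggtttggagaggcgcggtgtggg
TP53I3, chr2:24307301-24307500: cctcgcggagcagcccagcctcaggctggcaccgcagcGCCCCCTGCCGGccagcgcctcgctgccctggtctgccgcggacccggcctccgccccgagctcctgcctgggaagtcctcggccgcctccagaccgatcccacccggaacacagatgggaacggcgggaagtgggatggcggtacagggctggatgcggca
FAS, chr10:90746726-90746925: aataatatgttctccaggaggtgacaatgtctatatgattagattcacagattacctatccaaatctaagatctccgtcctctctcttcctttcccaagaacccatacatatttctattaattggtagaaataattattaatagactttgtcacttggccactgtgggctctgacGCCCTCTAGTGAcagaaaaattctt
MDM2, chr12:69201876-69202075: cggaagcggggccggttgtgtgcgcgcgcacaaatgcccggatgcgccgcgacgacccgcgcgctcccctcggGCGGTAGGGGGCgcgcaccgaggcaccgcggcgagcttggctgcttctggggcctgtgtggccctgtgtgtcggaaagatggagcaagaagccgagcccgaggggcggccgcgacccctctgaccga
BTG2, chr1:203275751-203275950: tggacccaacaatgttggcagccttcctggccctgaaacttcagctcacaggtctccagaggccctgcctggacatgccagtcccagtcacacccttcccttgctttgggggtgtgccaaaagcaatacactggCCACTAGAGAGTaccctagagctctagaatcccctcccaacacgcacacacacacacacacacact

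At CDKN1A, the gene of the cyclin-dependent kinase inhibitor p21, the peak lay in an annotated exon 1935 bp downstream of the start (chr6:36648251-36648600). Its fold enrichment of ChIP over input was 64.8 in control cells and 41.9 in treated cells. Since folds of the separate lists are not on a common scale, each peak was also ranked within its own list, where 100 is the strongest, and this peak stood at percentile 98.4 in control cells and 78.2 in treated cells. The treated list is shorter and lacks mostly weak peaks, and the median difference over kept peaks of the whole genome was -9.21 points, so that a lower percentile alone is not read as a change in occupancy. Sites of the direct comparison of the conditions are given beside some peaks and for others further below. A kept peak given with its own position overlapped no site unless a site is stated there or further below. For lost peaks the sites are counted further below. At BBC3, which encodes the BH3-only protein PUMA, the peak was centred 480 bp downstream of the start in an intron (chr19:47733701-47734250). It had a fold of 45.5 and percentile 86.6 in control cells and a fold of 67.6 and percentile 97.99 in treated cells. Neither this peak nor the one at CDKN1A overlapped a site of the direct comparison, so that their opposite differences in rank are a description only. The peak over the start of TP53I3, a gene for a quinone oxidoreductase-like enzyme, extended from chr2:24307051 to 24307750 and had a fold of 52.3 in control cells. The treated peak there was narrower, 450 bp against 700 bp, and had a fold of 61.2. At FAS, the gene of a death receptor, the nearest peak lay at position -3588 relative to the start, inside an intron of the neighbouring actin gene ACTA2 (chr10:90746551-90747100). Its percentile was 42.1 in control cells and 78.0 in treated cells, which is the largest positive difference in rank among the kept peaks of the 9 loci.

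The peak over the MDM2 start (chr12:69201801-69202150) had a fold of 35.8 in control cells and 34.4 in treated cells, at percentiles 69.0 and 65.0. In treated cells it was wider, 450 bp against 350 bp, and it overlapped a site that the direct comparison of the conditions lists as higher in CBL0137-treated cells. The consensus match capitalised in its sequence spans the annotated start at position 69201957. BTG2, which encodes an antiproliferative partner of the CCR4-NOT deadenylase, was the exception among the 6 genes. Its peak, in an intron 1204 bp downstream of the start (chr1:203275801-203275900), had the lowest control fold of the 6, 14.1, and had no counterpart in treated cells, where the nearest peak was 22104 bp downstream with a fold of 10.7. At the other 3 genes the nearest control peak was 15.8 kb (GADD45A), 16.2 kb (BAX) and 21.3 kb (SESN1) from the start. Of these the peak next to GADD45A was lost, with a control fold of 17.0, and the other two had close folds in both lists, 42.4 and 45.0 at BAX and 23.1 and 22.9 at SESN1. In all, 2 of the 9 nearest peaks were lost, against 42.9% of all control peaks. Within 5 kb of the start of any protein-coding gene, with a peak counted once per gene, the share was 33.3%. With 9 peaks the count is a description only.

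Over all 9 loci, 48 of 63 control peaks overlapped a treated peak by at least 1 bp and are called kept, and 15 did not and are called lost. The lost share was 23.8% (95% Wilson interval 15.0% to 35.6%), against 42.9% of all control peaks. Wilson intervals here cover counting error only, and neighbouring peaks are not replicates, so that no p-value was computed across peaks. Around protein-coding genes of any kind, with the same window, 40.9% of control peaks were lost when each peak was counted once. Counted once for each window it was in, the share was 32.9% to 35.8%, depending on the distance from the start. The median gene with at least 4 control peaks lost 33.3%. Of these values, 40.9% lies above the members' interval, 35.8% lies just above its upper end, and 32.9% and 33.3% lie within it. In the other direction, 8 of 56 treated peaks had no overlapping control peak and are called arisen, which is 14.3% (95% Wilson interval 7.42% to 25.7%) against 8.07% of all treated peaks. The BAX locus held 5 of these 8, and without it 3 arisen peaks remained at the other loci. The share moved with the limits. It was 10% of the 10 control peaks within 10 kb of the gene bodies (39.9% within 10 kb of any protein-coding gene), and 4.44% when only the strongest control peaks, as many as there were treated peaks, were used (24.6% of all of these). At an FDR of at most 1e-05 in both lists it was 15.7% of 51 control peaks, against 44.03% of all, and CDKN1A, GADD45A and BAX then had 0 lost peaks. The map of the loci shows the positions and folds of the peaks.

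**Figure D1:**
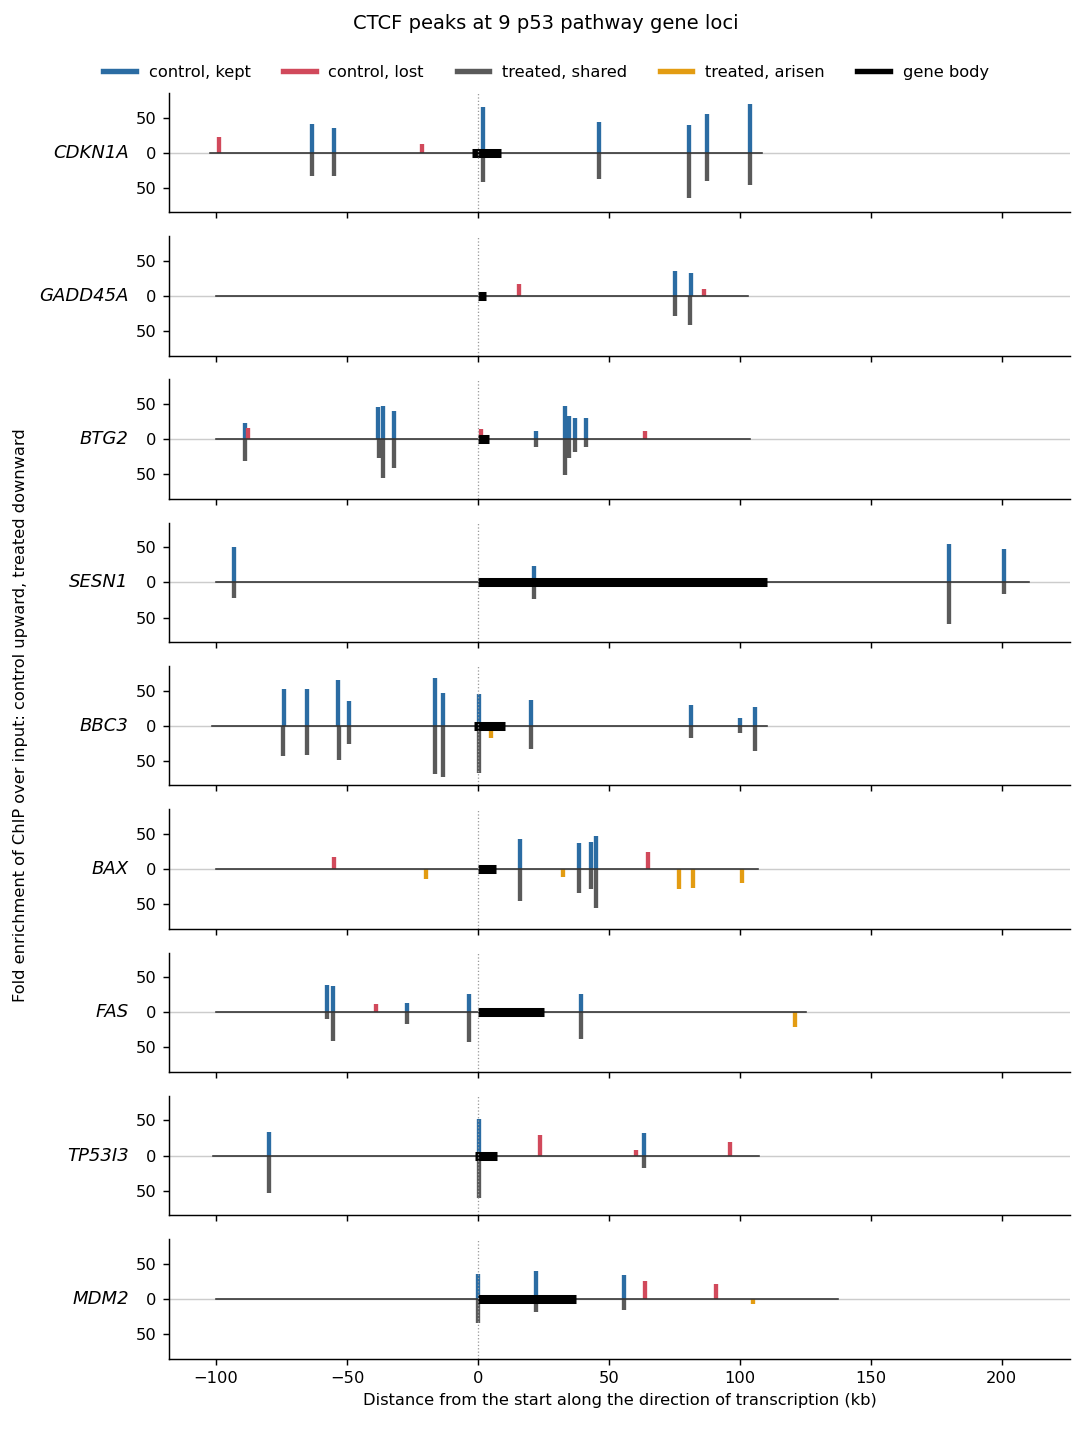
CTCF peaks of the 9 p53 pathway loci by distance from the transcription start (x axis, kb, positive in the direction of transcription), with fold enrichment of ChIP over input as height, control peaks upward and treated peaks downward, and fate as colour. No lost peak is found at BBC3 or SESN1, and 5 of the 8 arisen peaks lie at BAX.

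Among the genes of cell cycle arrest, CDKN1A kept 7 of 9 control peaks. Its lost peaks lay upstream, at -98.9 kb with a fold of 22.6 and at -21.3 kb with a fold of 12.1, and were the weakest of the locus. The kept peaks ranged in control fold from 35.5 to 69.3, and all but 1 had a lower percentile in treated cells, with a median change of -14.7 points. The strongest of all 63 member peaks was here, in an intron of the copine gene CPNE5 at 104 kb downstream, with a fold of 69.3 in control cells and 46.5 in treated cells. The exception was another peak in CPNE5, at 80.6 kb, which had folds of 39.05 and 64.8 and stood 21.3 points higher. GADD45A, whose product acts in growth arrest and DNA repair, had 4 control peaks. The lost ones had folds of 17.0 and 10.5, and the kept ones, both in introns of the G protein gene GNG12, had control folds of 35.4 and 32.6 and treated folds of 28.5 and 41.0.

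BTG2 had 12 control peaks, the most of any locus, of which 9 were kept. They formed groups at either side of the gene. Upstream, between -38.0 and -32.2 kb in the chitinase gene CHIT1, 3 peaks had control folds of 45.9, 47.0 and 40.6 and treated folds of 26.6, 55.4 and 41.5. Downstream, 4 peaks from 33.1 to 41.1 kb, beside and inside the fibromodulin gene FMOD, had control folds of 47.0, 32.9, 30.4 and 29.8. In treated cells these had folds of 50.6, 26.9, 17.7 and 10.5, and the percentile of the weakest differed by -47.5 points. Of these 4, only the peak at 37.1 kb overlapped a site listed as higher in control cells, and the weakest did not. The lost peaks were the one beside the start, one at -88.0 kb with a fold of 16.0, and one at 63.8 kb with a fold of 12.1. A kept peak at 22.3 kb was weaker than all 3, with a fold of 11.1, and its treated counterpart of 200 bp covered it only in part. This peak overlapped a site listed as higher in control cells, and was not kept when over 50% of the larger peak had to be covered.

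SESN1 encodes sestrin 1, a stress protein that restrains mTORC1. Its 4 control peaks were all kept (0 of 4 lost, 95% Wilson interval up to 49.0%). The level of 2 of them differed widely between the lists. The peak at 201 kb in an intron of ARMC2 had a fold of 47.8 in control cells and 16.6 in treated cells, and the peak at -93.2 kb had 50.7 and 22.2. Their percentiles differed by -68.5 and -56.0 points, and both overlapped sites listed as higher in control cells. The other 2 changed little, with folds of 55.4 and 59.1 at 180 kb and the values given above at 21.3 kb.

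Among the genes of apoptosis, BBC3 kept all of its control peaks (0 of 11 lost, 95% Wilson interval up to 25.9%). Of 3552 protein-coding genes with at least 11 control peaks in the same window, 70 (1.97%) had none lost. The limit of 11 is the count of BBC3 itself, and these genes were not matched to it in fold or chromosome. The share is therefore a description and not a test. The background on chromosome 19, where BBC3 and BAX lie, was 21.1% lost. Upstream of the start, the peaks at -13.2 and -16.3 kb had control folds of 46.4 and 68.4 and treated folds of 72.6 and 69.4. The latter held a full match to the CTCF core consensus, printed here in capitals within 40 bases as the strongest peak of a locus that lost none.
BBC3 kept at -16.3 kb, chr19:47750813-47750852: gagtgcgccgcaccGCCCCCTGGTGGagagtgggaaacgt
Further upstream, 4 peaks between -49.3 and -74.2 kb, among them 2 in introns of the complement receptor gene C5AR1, had lower percentiles in treated cells, by 12.1 to 23.1 points. The weakest, with a fold of 11.2 at 100 kb in the SUMO-activating enzyme gene SAE1, was kept as well, with a treated fold of 10.9. None of the 11 control peaks of BBC3 overlapped a site of the direct comparison, in either direction. A new peak arose 5005 bp downstream of the start in a BBC3 intron (chr19:47729301-47729600), with a fold of 17.2 and an FDR of 6.89e-08. It overlapped a site listed as higher in treated cells.

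BAX, which forms pores in the mitochondrial outer membrane, kept 4 of 6 control peaks. The kept ones lay between 16.2 and 45.1 kb downstream, in the glycogen synthase gene GYS1 and in or near the ATPase gene RUVBL2, with control folds of 36.6 to 47.5 and treated folds of 28.4 to 56.2. The lost ones, at -54.8 kb in NUCB1 and at 64.9 kb, had folds of 17.0 and 23.8. The 5 arisen peaks at this locus were each 150 bp wide and had folds of 12.01 to 28.2, with FDR values between 5.99e-05 and 0.00156. They lay at -19.7 kb in DHDH, at 32.5 kb in GYS1, and at 76.9, 82.1 and 101 kb. The last was in CGB7, one of the near-identical chorionic gonadotropin genes, where reads with several positions had been removed. Every 75-base stretch of the 5 peaks occurred once on chromosome 19. Of the 8 arisen peaks of all loci, 2 had an FDR of at most 1e-05, those at BBC3 and MDM2.

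At FAS, 5 of 6 control peaks were kept. The lost peak, at -38988 bp in an ACTA2 intron, had a fold of 12.4, the lowest of the locus. The peak at -57.8 kb in an intron of STAMBPL1 had the largest negative difference in rank of all kept member peaks, with a fold of 39.2 and percentile 76.2 in control cells and a fold of 8.90 and percentile 2.58 in treated cells, and it overlapped a site listed as higher in control cells. The neighbouring peak, at -55.4 kb over a coding exon of ACTA2, had folds of 38.1 and 40.6. Downstream, at 39.3 kb, the fold was 25.3 in control cells and 38.5 in treated cells, a difference of 31.9 points in percentile. An arisen peak at 121 kb had a fold of 21.4.

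TP53I3 kept 3 of 6 control peaks, a lost share of 50% that GADD45A shared with 2 of 4. Both depended on the limits. At an FDR of at most 1e-05 in both lists, GADD45A had 0 of 2 lost, and TP53I3 had 3 of 5 lost, which were not the same 3. The peak at 60.5 kb was then left out, with a control FDR of 5.28e-05. The peak at 63.3 kb then counted as lost, because its treated counterpart had an FDR of 0.00124. In the full lists, the lost peaks of TP53I3 had folds of 18.8 at 96.3 kb, 8.17 at 60.5 kb and 29.7 at 23.8 kb. The last, in an FKBP1B intron, was the strongest lost peak of all loci and the only one above the median control fold of 28.7 over all control peaks. Its 40 bases with the consensus match (1 mismatch) are given because they show that a lost peak could carry the motif.
TP53I3 lost at 23.8 kb, chr2:24283914-24283953: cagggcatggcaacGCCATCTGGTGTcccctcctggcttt
Of the kept peaks, the one at -79.7 kb, with a full consensus match, went from a fold of 33.4 to 53.9, and the one at 63.3 kb in MFSD2B from 31.9 to 17.5. The peak at 63.3 kb overlapped a site listed as higher in control cells.

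MDM2, the feedback regulator, had 5 control peaks, of which 2 lay in the gene and 3 beyond its end, in CPM. The peak over the start is described above. The peak at 22.2 kb in an MDM2 intron had a fold of 39.1 in control cells and 18.1 in treated cells, and the one at 55.9 kb, in this neighbouring carboxypeptidase gene, 33.6 and 15.6. Their percentiles differed by -50.8 and -45.5 points. The remaining peaks, at 63.9 and 91.1 kb in CPM introns, had control folds of 25.3 and 21.1 and were lost. All 4 peaks downstream of the start overlapped sites listed as higher in control cells. The 40 bases around the matches of the kept intronic peak and of the lost peak at 63.9 kb are given side by side, each match with 1 mismatch.
MDM2 kept at 22.2 kb, chr12:69224169-69224208: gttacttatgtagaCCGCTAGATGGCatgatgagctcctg
MDM2 lost at 63.9 kb, chr12:69265889-69265928: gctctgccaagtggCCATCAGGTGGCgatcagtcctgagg
An arisen peak at 105 kb, with a fold of 7.48, was the weakest of the 8.

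Lost peaks had been weaker in control cells than kept ones. The kept member peaks had control folds of 11.1 to 69.3 with a median of 39.1, and the lost ones 8.17 to 29.7 with a median of 17.0. In all control peaks these medians were 34.9 and 20.6. At 6 of the 7 loci with a lost peak, every lost peak was weaker than every kept one, BTG2 being the exception. Of 41 member peaks at or above the median fold of all control peaks, 1 was lost (2.44%), against 20.1% of all such peaks. Below the median, 14 of 22 were lost (63.6%), against 65.7%. Among strong peaks the lost share was thus lower at the member loci than in the genome, and among weak peaks it was close to that of the genome, which is given as a description without a test. When all control peaks were divided into 10 equal bins by fold, 36 member peaks fell in bins 7 to 10 and 0 of them were lost, whereas 16.7% of all control peaks in these bins were lost.

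**Figure D2:**
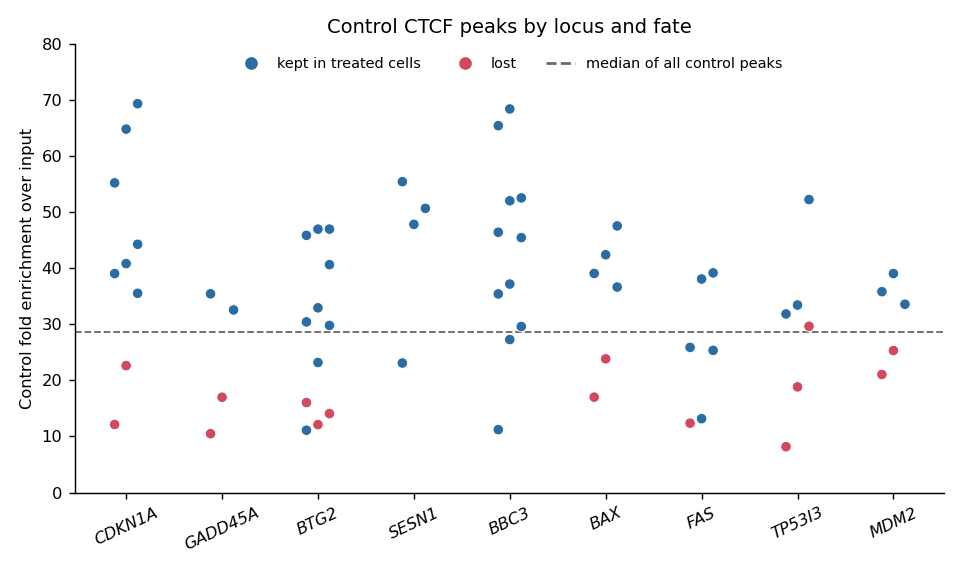
Control fold enrichment of ChIP over input (y axis) of each control peak at the 9 loci (x axis), with fate as colour and the median of all control peaks, 28.7, as a dashed line. With the exception of BTG2, the lost peaks of a locus lie below its kept ones, and 1 lost peak, at TP53I3, is above the line.

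The member peaks were stronger than most, with a median control fold of 35.4 against 28.7, and richer in G and C, with 51.3% against 46.0% over 400 bp. The lost share of all control peaks was therefore also weighted to the make-up of the members. It was 36.3% at the members' bins of fold, which would be 22.9 of the 63 peaks, 38.0% on their chromosomes, and 38.4% at their 10 bins of GC content. With fold and GC content together it was 33.4%, and with fold and chromosome together 33.65%. The members' 23.8% was below each of these values, and its counting interval, up to 35.6%, reached over the last pair only. The 15 lost member peaks had a median GC content of 52.3% and the 48 kept ones 50.9%. Over all control peaks lost ones were poorer in G and C (43.3%) than kept ones (48.5%). Single lost member peaks ranged from 34.3% to 68.3%, so that the small difference at the members is a description only.

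**Figure D3:**
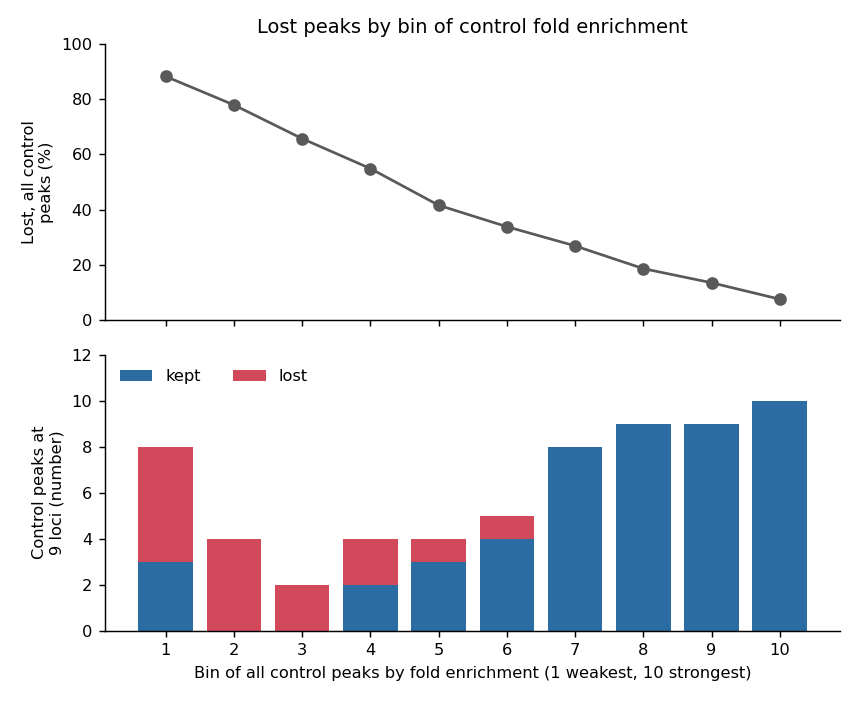
Upper panel, share of all control peaks that were lost (percent) in each of 10 equal bins of control fold (x axis, 1 the weakest), and lower panel, number of member control peaks kept and lost in the same bins. The share over all control peaks falls from 88.3% to 7.61%, and no member peak of bins 7 to 10 was lost.

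Kept peaks were also compared in their place within the lists. The median change in percentile among the 48 kept member peaks was -5.72 points, against -9.21 for all kept peaks. It ranged from -73.7 to 35.9 points, and 19 peaks (39.6%) stood higher in the treated list, against 35.2% of all. By locus the median ran from -45.5 at MDM2 and -28.0 at SESN1 through -14.7 at CDKN1A and -11.2 at BBC3 to 12.7 at FAS. At BAX, BTG2, GADD45A and TP53I3 it lay between -2.46 and 2.80. Treated peaks were narrower than the control peak in 23 of 48 cases (47.9%, against 62.4% of all), of equal width in 17 and wider in 8.

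**Figure D4:**
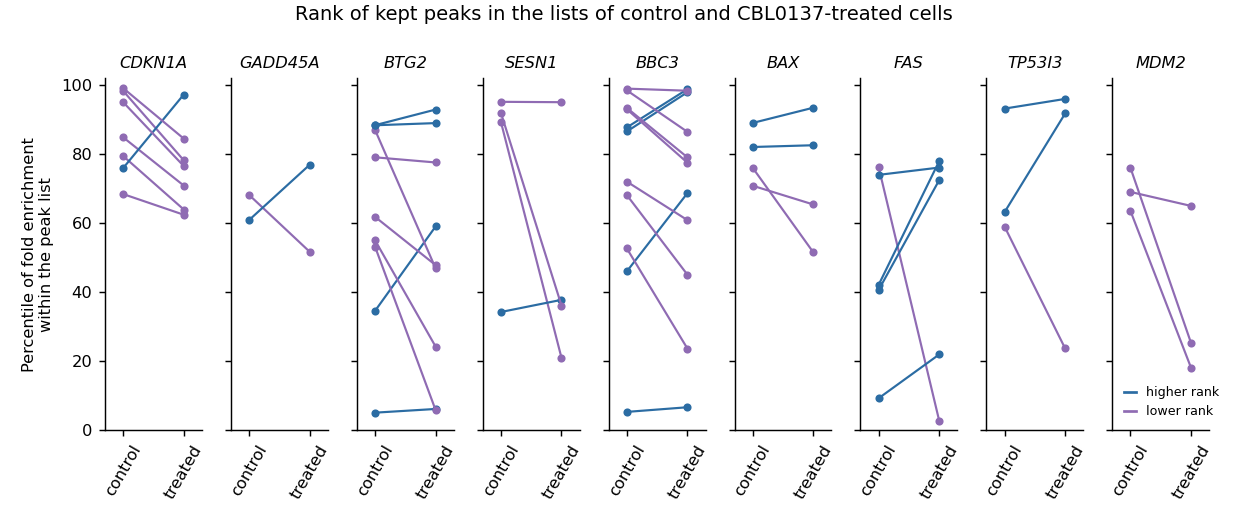
Percentile of fold enrichment within the peak list (y axis) for each of the 48 kept peaks in control and in treated cells, joined by a line whose colour gives the direction, with a panel per locus. The largest negative and positive differences, -73.7 and 35.9 points, are both at FAS, and all but 1 of the lines at CDKN1A go down.

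The direct comparison of the conditions, which uses the replicates, gives positions of sites with higher signal in either condition. Of the 63 member control peaks, 25 lay at a site where control cells had the higher signal (39.7%, 95% Wilson interval 28.5% to 52.0%), against 51.2% of all control peaks. These included 14 of the 15 lost peaks (93.3%, against 78.4% of all lost peaks) and 11 of the 48 kept ones (22.9%, against 30.8%). The lost peak without such a site was the one at -88.0 kb of BTG2. Among the 56 treated peaks, 2 lay at a site where treated cells had the higher signal (3.57%, against 7.25% of all treated peaks), namely the peak over the MDM2 start and the arisen BBC3 peak. A site and a rise in rank could go together with opposite signs. The FAS peak at -3588 bp, the TP53I3 start peak and the BTG2 peak at 22.3 kb each overlapped a site higher in control cells. Their percentiles were nevertheless higher in treated cells, at BTG2 by only 1.07 points. At TP53I3 (chr2:24307601-24307700) and BTG2 (chr1:203297051-203297200) the site lay in the part of the control peak that the treated peak did not cover.

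The CTCF core consensus, with at most 1 mismatch within 400 bp of sequence around the centre, was present in 35 of 63 member peaks (55.6%), against 49.0% of all control peaks. Kept member peaks held it in 31 of 48 cases (64.6%, against 62.2% of all kept peaks) and lost ones in 4 of 15 (26.7%, against 31.5%). In this feature the members were thus close to the genome in both classes. By distance from the start, 1 of 6 control peaks within 5 kb was lost, 4 of 25 from 5 to 50 kb, and 10 of 32 farther away. Over the windows of all protein-coding genes, with a peak counted once for each window it is in, the shares at these distances were 33.3%, 32.9% and 35.8%.

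To see whether other genes of the pathway had the same profile, 61 further genes were taken from a list of p53 regulators, targets and effectors. Their windows held 447 control peaks, of which 152 were lost (34%, 95% Wilson interval 29.8% to 38.5%). This was above the 23.8% of the 9 loci and below 41.7%, the share of all control peaks at the same bins of fold. The 46 genes with at least 5 control peaks were spread widely, with 18 below 25% lost, 14 from 25% to under 50%, 10 from 50% to under 75% and 4 at 75% or more. Among those with low shares, CDK4, the kinase of the G1 phase, lost 1 of 10. TP73, a relative of p53, lost 1 of 9, and CYCS (cytochrome c) and SFN (14-3-3 sigma) lost 1 of 8 each. At the other end, POLK, a translesion DNA polymerase, lost all 7, and CHEK1 and RCHY1 lost 4 of 5 each. MDM4, the partner of MDM2 in holding p53 in check, lost 3 of 9. Where the nearest control peak lay within 5 kb of the start, it was lost at 8 of 26 of these genes, against 1 of 6 among the members.

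**Figure D5:**
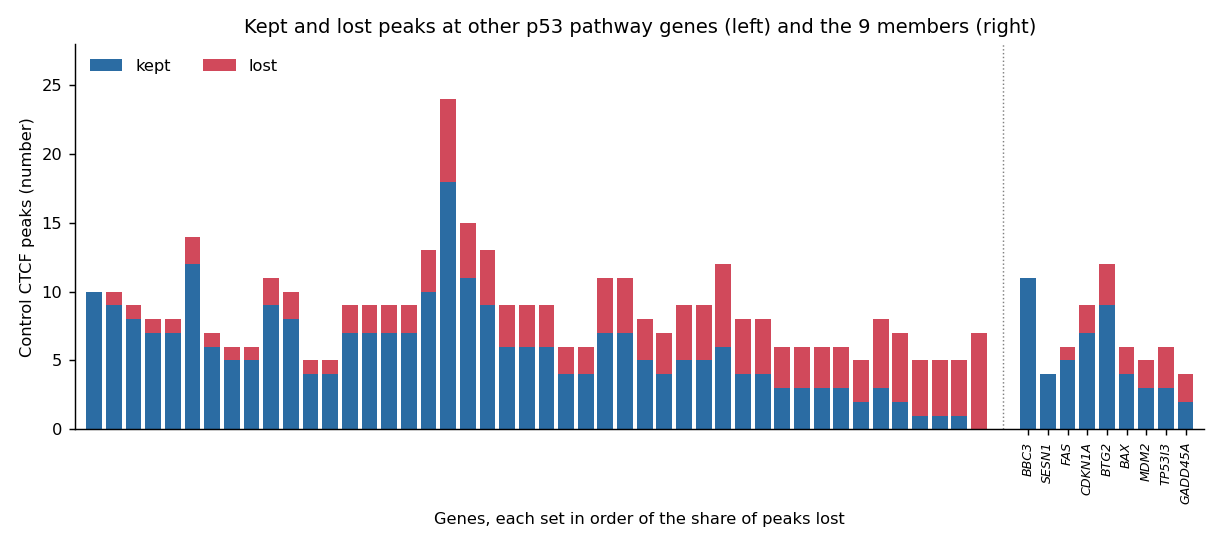
Number of control CTCF peaks kept and lost (stacked bars) at the 46 further p53 pathway genes with at least 5 control peaks, left and without names, and at the 9 loci, right, each set ordered by the share lost. BBC3 and SESN1 have no lost peak, and the last bar of the further genes, POLK, has no kept one.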

How the data were processed

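CTCF ChIP-seq of control and CBL0137-treated HT1080 cells was used, with samples grouped by their labels. Per the submitters' processing notes, reads were handled with Bowtie2 2.2.3, SAMtools 1.5 and deepTools 2.0. Per the study's methods, the authors mapped them to hg19, discarded those with several positions and called peaks with PePr on both replicates of a condition together. The deposited lists give for each peak a fold, which is a ratio of ChIP over input, with a p-value and an FDR by the authors. The deposited lists of differential sites hold the authors' own folds and p-values between the conditions, which were not used, so that only site positions were taken. The labels describe paired-end reads and the methods single-end reads.

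Peaks were joined to GENCODE v44lift37 genes on GRCh37, of the same coordinates as hg19, with starts from the Ensembl canonical transcript (for FAS, from the gene record). By rule, the named peaks are the nearest to each start, the strongest kept and lost peak of a locus, the arisen peaks and those at sites higher in treated cells, and the named further genes are those with the highest and lowest lost shares. Some of these genes are not reported here by name. Other peaks and MDM4 were named after their values were seen. The 26 peaks of each list on other contigs took no part in sequence measures. The CTCF core consensus was searched on both strands. The genes, the further pathway genes and the measures were chosen with earlier results of these data known, and no p-value was computed across peaks. Tests on simulated data placed 100.0% of 20000 simulated peaks correctly by overlap and found 100.0% of matches implanted in 2000 sequences. Python 3.11.15, numpy 2.4.6, pandas 2.3.3, pysam 0.24.0 and matplotlib 3.10.9 were used. Other overlap rules, thresholds and windows were tried (closing section). The signal tracks were not analysed here.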

Additional observations from a re-analysis of the deposited data

How the results depend on the processing

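No paired analysis was possible because the lists pool the replicates and hold no value per replicate, and for the same reason leaving out a replicate was not run. The lost share at the 9 loci (23.8%) was 15.7% at an FDR of at most 1e-05 in both lists (44.03% of all control peaks), 9.80% with this limit on control peaks alone (29.3% of all such peaks), 4.44% when the control list was shortened to its strongest peaks until as long as the treated list (24.6% of all such peaks), and 10% within 10 kb of the gene bodies (39.9% for any protein-coding gene). Requiring that over 50% of the larger peak be covered gave 30.2% (50.7% of all control peaks), and leaving out 1 locus at a time, an alternative chosen after the data were seen, gave 21.1% to 28.9%. Without both chromosome 19 loci it was 28.3%. Windows of 10, 50 and 200 kb held 10, 33 and 118 control peaks and 10, 30 and 97 treated peaks. Of the 8 arisen peaks, 2 were left at an FDR of at most 1e-05 in both lists and 2 with this limit on treated peaks alone, 1 within 10 kb and 3 within 50 kb, and 3 without BAX. The consensus share was 7.94% with no mismatch and 82.5% with 2 mismatches. At the further genes, the lost share was 43.9% by the same rule of over 50%. For single loci, 54 lost counts were computed, under the rule of over 50%, centres at most 200 bp apart, the FDR limit and a 10-fold limit on both lists, and windows of 50 and 200 kb, and 18 were more than 1.5 times off the main count. With the FDR limit, CDKN1A, GADD45A and BAX lost 0 in place of 2, BTG2 1 in place of 3, and FAS 2 in place of 1. FAS lost 3 by the rule of over 50% and 2 at 10-fold, and the other 11 were with other windows. Causes were not tested.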

Other observations

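The p53 response element was also looked for at the member peaks, by its usual consensus of a pair of half-sites, with a spacer of at most 13 bp and at most 1 mismatch in all, within 400 bp around the centre. It was found in 2 of 63 control peaks, against 1.185% of all control peaks. Both were lost peaks, at 23.8 kb of TP53I3 and at 91.1 kb of MDM2. The lost share of all control peaks with such a pair was not computed, and 42.9% of all control peaks were lost. No link between the pair and the fate of a peak is therefore read from these 2. The stretches are printed from GRCh37, plus strand, with the half-sites in capitals.
TP53I3, chr2:24284023-24284053: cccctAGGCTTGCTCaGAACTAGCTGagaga
MDM2, chr12:69292959-69292992: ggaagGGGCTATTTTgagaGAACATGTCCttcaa
A match is a description of the sequence, and binding of p53 was not measured. In the promoters of RefSeq (GRCh38, 250 bases before to 50 after a start), 8 of the 9 genes were found, with 15 promoters. None held a p53 pair (0.743% of 35116 promoters of all genes did) or a CTCF core consensus with at most 1 mismatch (4.94% did). At shares this low, finding none in 15 promoters carries no information. Sequence farther from the start was not searched in this way, so that a p53 element there is not excluded.

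Over 16076 protein-coding genes with at least 4 control peaks in the same window, the median lost share was 33.3%, with quartiles of 20% and 50%, and 7.02% of these genes lost none. CDKN1A (22.2%), BTG2 (25%), FAS (16.7%) and BAX (33.3%) fell at or below the median, as did BBC3 and SESN1, and GADD45A, TP53I3 and MDM2 lay above it. Many of these windows overlap, so that genes are not independent.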
